A study of Caenorhabditis elegans with 2 samples.

Results

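Candidate peaks of CEH-79 that lay inside introns of autosomal protein-coding genes, away from their promoters, are described here. A pooled candidate was a member if its summit fell within a protein-coding gene but in no annotated exon. Summits in a promoter window, defined as the 1000 bp before and the 200 bp after any protein-coding start, were left out. So were summits with a gene for an snRNA, snoRNA or tRNA at 500 bp or less. The X chromosome was left out. Of 30000 pooled candidates, 5193 met the rule (17.3%), which is 21.0% of the 24716 autosomal ones. The rule used positions only, but it was set with earlier results of these data known.

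The data came from chromatin immunoprecipitation and sequencing with an anti-GFP antibody on whole young adults. All animals were of 1 strain, OP553, in the unc-119(tm4063) III background. They carried the integrated transgene wgIs553, which makes CEH-79 with GFP and FLAG at its C terminus. Animals were pooled across sexes and collected 66 hours after release from synchronization as starved larvae. The labels name no promoter for the transgene, and whole worms do not resolve cell types. The 1 group held 2 biological replicates, so no condition could be compared and no test is given. The files hold peaks with a signal, the authors' own value for each peak on a scale not stated, and the read depth behind them is unknown. Intervals are at 95% and cover counting error over peaks only.

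CEH-79 belongs to the homeobox family, whose members bind DNA through a homeodomain. Introns are removed from the transcript at splice sites, and besides those sites they can hold enhancers, promoters of internal transcripts and whole noncoding genes. In Caenorhabditis elegans many introns are shorter than a ChIP-seq peak, so a peak with an intronic summit often reaches into the neighbouring exons.

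The sequences below are 101 bp windows centred on summits, read from the RefSeq WBcel235 assembly, which has the coordinates of build ce11. They are written 5′ to 3′ on the strand of the host gene. The first set is shown because these optimal members, that is, members in the list the authors thresholded on the irreproducible discovery rate, hold the word GAGAGA or its reverse complement TCTCTC. Capitals mark that word. In R05D3.9 the marked word lies in the exon that follows the intron, not in the intron itself.
mdt-26, chrII:5661782-5661882, plus strand: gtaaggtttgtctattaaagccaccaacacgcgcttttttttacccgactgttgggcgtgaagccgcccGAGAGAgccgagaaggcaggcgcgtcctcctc
epg-9, chrIV:2602109-2602209, plus strand: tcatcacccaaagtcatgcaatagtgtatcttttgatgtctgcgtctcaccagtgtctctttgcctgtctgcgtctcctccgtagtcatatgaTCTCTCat
mnk-1, chrII:10552080-10552180, minus strand: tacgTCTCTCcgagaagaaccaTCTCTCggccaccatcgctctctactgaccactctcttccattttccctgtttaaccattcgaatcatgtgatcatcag
Y54G2A.77, chrIV:2765238-2765338, plus strand: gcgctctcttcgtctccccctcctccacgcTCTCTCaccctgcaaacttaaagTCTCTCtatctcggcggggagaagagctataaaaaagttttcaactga
R05D3.9, chrIII:8362561-8362661, minus strand: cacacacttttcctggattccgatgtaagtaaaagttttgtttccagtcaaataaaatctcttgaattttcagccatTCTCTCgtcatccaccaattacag
pqn-41, chrIII:1921299-1921399, plus strand: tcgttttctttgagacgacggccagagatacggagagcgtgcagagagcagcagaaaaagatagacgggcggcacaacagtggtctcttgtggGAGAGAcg
unc-116, chrIII:8354828-8354928, minus strand: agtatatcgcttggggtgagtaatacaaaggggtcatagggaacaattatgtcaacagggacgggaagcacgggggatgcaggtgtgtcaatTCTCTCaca

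The second set shows optimal summits in introns of about 50 bp, where exon sequence lies inside the window. Capitals mark exon bases.
C36E8.4, chrIII:4015542-4015642, plus strand: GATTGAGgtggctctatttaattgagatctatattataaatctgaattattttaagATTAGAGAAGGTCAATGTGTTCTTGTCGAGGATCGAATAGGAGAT
vig-1, chrII:1322131-1322231, plus strand: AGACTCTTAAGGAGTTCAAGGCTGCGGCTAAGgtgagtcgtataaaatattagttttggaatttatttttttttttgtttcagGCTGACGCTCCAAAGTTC
nxf-1, chrV:14412966-14413066, minus strand: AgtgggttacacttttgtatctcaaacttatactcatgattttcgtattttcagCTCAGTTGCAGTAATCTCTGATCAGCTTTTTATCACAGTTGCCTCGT

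The third set shows optimal summits in longer introns with the highest GC content among the windows printed here. All bases of these windows are intronic, so none is in capitals.
lit-1, chrIII:13721259-13721359, plus strand: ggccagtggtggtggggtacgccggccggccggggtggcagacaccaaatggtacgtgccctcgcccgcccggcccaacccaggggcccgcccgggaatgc
R107.5, chrIII:9052675-9052775, minus strand: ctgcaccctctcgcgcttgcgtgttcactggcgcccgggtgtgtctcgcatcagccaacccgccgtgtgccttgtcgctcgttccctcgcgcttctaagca
gei-4, chrIII:349854-349954, minus strand: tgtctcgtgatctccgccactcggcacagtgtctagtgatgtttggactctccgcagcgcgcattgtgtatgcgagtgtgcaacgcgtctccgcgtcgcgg

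The first of these windows, in mdt-26, began at the first base of the intron. Those of lit-1, R107.5 and gei-4 had GC contents of 76.2%, 65.3% and 60.4%. For comparison, windows centred on bases of the eligible intron sequence had a mean of 32.8% ± 8.48 (SD over windows). The lit-1 peak lay wholly inside its intron, but annotated exons made up 17.7% of it. The noncoding gene W06F12.7 lay within 500 bp of its summit. In C36E8.4 the intron was 49 bp long, in vig-1 51 bp and in nxf-1 53 bp, and exons made up 79.0%, 88.0% and 87.5% of these peaks.

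Few members were among the peaks the authors retained. Of the 5193 members, 35 were optimal (0.674%, interval 0.470 to 0.936), beside 1.89% of all pooled candidates and 1.87% of the autosomal ones. Within the stronger 50% of the optimal list, members were 12 (0.231% of members, beside 0.943% of all candidates). With the whole optimal list, candidates in coding exons had a share close to that of the members, 41 of 6498 (0.631%, interval 0.453 to 0.855). Promoter windows had 176 of 7423 (2.37%, interval 2.04 to 2.74), and distal intergenic sequence 54 of 3465 (1.56%, interval 1.17 to 2.03). The interval of the intronic share did not overlap those of the promoter and intergenic classes, and the difference was not tested. Members made up 6.18% of the 566 optimal peaks and 17.3% of all candidates. By pooled rank, they were 11.8% of the peaks from the optimal list to rank 3000, 15.9% from rank 3001 to 10000 and 18.8% from rank 10001 to 30000. Among members, optimal status followed pooled signal, as all to pooled rank 563 were optimal and none from rank 575 on. The optimal share and the pooled signal are thus not separate measures of the members.

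**Figure D1:**
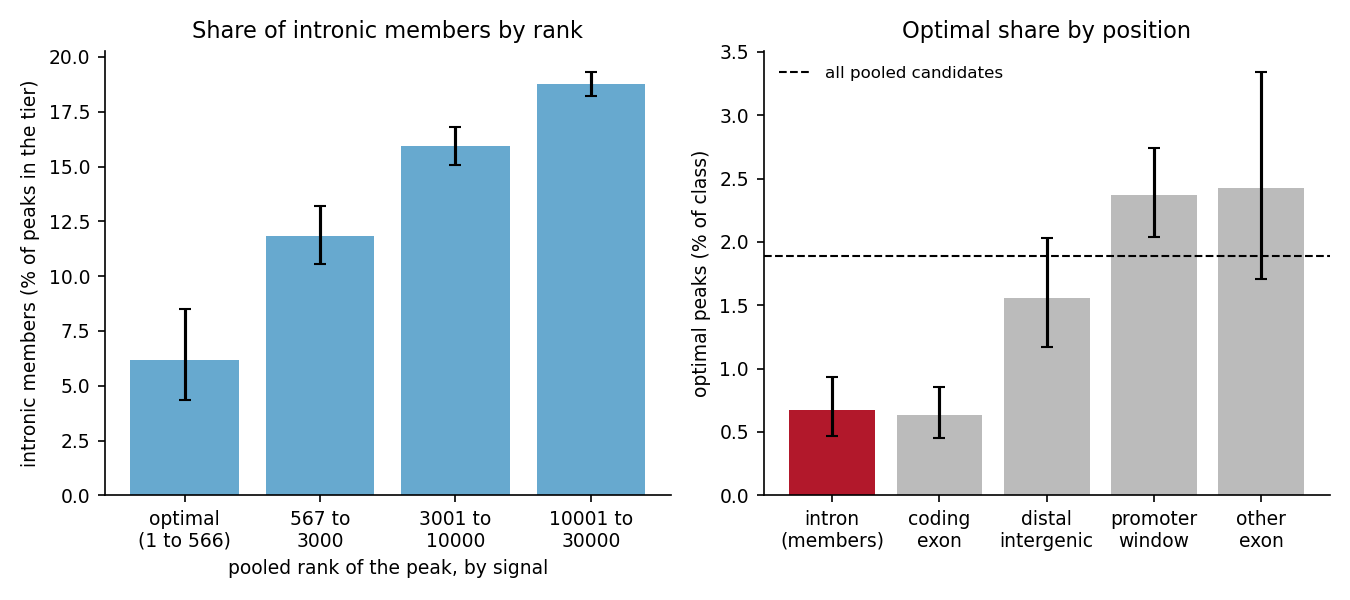
Left, members as a percentage of the pooled peaks in 4 tiers of signal rank. Right, optimal peaks as a percentage of 5 autosomal position classes, with the share over all pooled candidates as a dashed line. Bars show shares and error bars exact binomial 95% intervals. The share of members was 6.18% in the optimal tier and 18.8% in the weakest, and the optimal share of introns was 0.674%.

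Member signals spanned 23.2 to 344, with a median of 31.3 (interval 31.1 to 31.6) and quartiles of 26.8 and 38.6. Over all candidates the median was 32.6. It was 33.3 in promoter windows and 32.5 in both coding exons and distal intergenic sequence. The intronic distribution was thus shifted slightly down, and its 90th percentile was 48.4 against 53.8 for all candidates. Just inside the lowest optimal signal of 86.5 lay members in nxf-1, a nuclear RNA export factor (86.7), akap-1, an anchor protein of protein kinase A (87.2), and Y56A3A.7 (88.2). Just outside lay members in pde-2, a cyclic nucleotide phosphodiesterase (85.9), arx-3, a subunit of the actin-nucleating Arp2/3 complex (85.9), and gstk-2, a glutathione S-transferase (85.7).

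The 2 strongest members stood apart from the rest. The strongest lay in ints-8, which encodes a subunit of the Integrator complex that processes small nuclear RNAs, in a first intron of 2023 bp on chromosome I. Its pooled signal was 344, with 169 in replicate 1 and 167 in replicate 2, and it had rank 3 in both replicates. It lay within 500 bp of rpr-1, the RNA component of RNase P, a class that the rule did not exclude. The peak lay wholly inside that intron of ints-8, but annotated exons made up 45.8% of it. It thus cannot be assigned to ints-8 rather than rpr-1 from the lists. The next strongest lay in mdt-26, a subunit of the Mediator complex, at 279 in the pooled list, 147 in replicate 1 and 142 in replicate 2, with ranks of 6 and 5. No annotated noncoding gene lay within 500 bp of it. The third strongest member had a pooled signal of 158, in epg-9, an autophagy gene, with 92.6 in replicate 1 and 70.6 in replicate 2.

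Some other members with high signals had ranks further apart in the replicates. In epc-1, the homolog of Enhancer of polycomb, the pooled signal was 156, with 101 in replicate 1 and 58.7 in replicate 2. In lips-10, of a lipase family, it was 149, with 96.1 and 49.9. The peak in mnk-1, a kinase of the MAP kinase-interacting family, had a pooled signal of 126, with 81.6 and 51.0. The values of the replicates come from separate lists, with medians of 21.1 and 17.7 over all their peaks, so only ranks are compared between them. Ranks in replicate 1 and replicate 2 were 41 and 151 for epc-1, 49 and 310 for lips-10 and 95 and 287 for mnk-1. Those peaks were thus among the 566 strongest of both replicates. A peak in zip-7, a bZIP transcription factor, ranked 91 in replicate 2 but 1362 in replicate 1. One in B0361.11, beside mir-2214, ranked 85 in replicate 1 and 3500 in replicate 2.

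Of the 35 optimal members, 14 were among the 566 strongest peaks of both replicates, 32 of at least 1 and 3 of neither. Their median rank was 409 in replicate 1, with the lowest placed at 3870, and 434 in replicate 2, with the lowest placed at 9822. Ranks of 6 optimal members differed at least 10-fold between the replicates. The widest gap was in C47B2.2 on chromosome I, which ranked 149 in replicate 1 and 9822 in replicate 2. All 35 overlapped a candidate in both replicates.

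Among all members, 2360 overlapped a candidate of both replicates by at least 1 bp (45.4%, interval 44.1 to 46.8), beside 49.5% of all pooled candidates. Replicate 1 alone matched 1399 members, replicate 2 alone 1138, and neither matched 296 (5.70%). Matching was close to complete at high signal and sparse at low signal, at 96.5% from the optimal list to rank 3000, 76.3% from rank 3001 to 10000 and 31.8% below that. Members matched to the 566 strongest peaks were 45 for replicate 1 (0.867%, beside 2.06% of all candidates), 44 for replicate 2 (0.847%, beside 2.11%) and 15 for both (0.289%, beside 0.890%). The single non-optimal member of those 15 was a weaker peak in gei-4 that overlapped the optimal one there and was matched to the same replicate peaks. Across the 2360 members matched in both, Spearman's rho of the replicate signals was 0.187. It was 0.263 over all matched candidates and 0.283 in promoter windows. These peaks share their libraries and their control, and the lists are cut at a fixed length, so rho is a description of the lists.

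**Figure D2:**
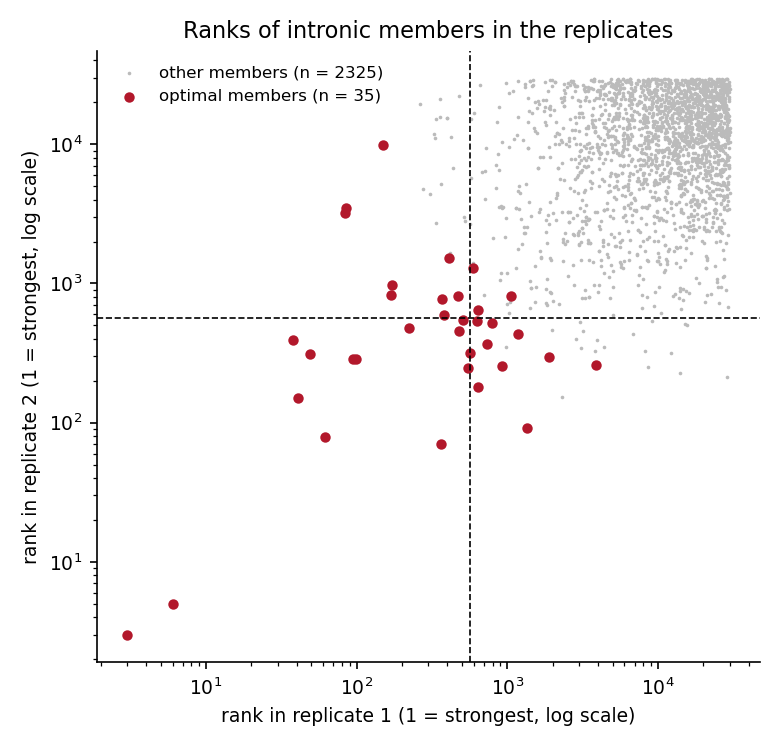
Rank of each member in replicate 1 (x) and replicate 2 (y), both on log scales, for the 2360 members with a candidate in both replicates. Red points are the 35 optimal members and grey points the other 2325, and dashed lines mark rank 566 in each replicate. The ints-8 and mdt-26 members sit apart at the lower left, and most grey points crowd the upper right.

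First introns held slightly more members per base than later ones. The sequence that met the rule (eligible sequence) came to 22.0 Mb, or 26.7% of the autosomes, and held 236 members per Mb, beside 299 candidates per Mb of autosome. First introns of at least 1 transcript held 1530 members in 6.12 Mb, which is 250.0 per Mb (interval 238 to 263). Later introns held 3649 in 15.9 Mb, 230.1 per Mb (interval 223 to 238), and 14 members lay in no intron of a coding transcript. The ratio of the densities was 1.09 (interval 1.02 to 1.15), and 1.05 when only introns that come first in every transcript were counted as first. It was 1.12 with a promoter window of 500 bp upstream and 100 bp downstream, and 1.04 with 2000 bp and 500 bp. Merging overlapping members gave 1.07. The median distance to the nearest protein-coding start was 873 bp for members in first introns and 1892 bp in later ones. The part of nearness to promoters in the ratio was not tested. Optimal shares were 10 of 1530 in first introns (0.654%) and 25 of 3649 in later ones (0.685%). Neither the optimal share nor the median signal, 31.5 in first and 31.2 in later introns, separated the 2 kinds of intron. First introns made up 28.6% of the optimal members, 36.1% of members to rank 3000, 30.7% to rank 10000 and 28.6% below that.

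Members were densest in the shortest and the longest introns. The introns that held them had a median length of 836 bp (quartiles 363.5 and 2360.5), beside 932 bp for the eligible bases themselves. Density was 316 per Mb in introns under 100 bp and 191 per Mb (interval 180 to 202) in those of 1000 to 2999 bp. It was 256 per Mb at 3000 to 9999 bp and 296 per Mb (interval 259 to 337) at 10000 bp and over. First introns had the higher density in 5 of 6 length classes, but the intervals of first and later introns were apart only at 1000 to 2999 bp, with 218 (interval 196 to 241) and 181 per Mb (interval 168 to 194). In the longest class the order was reversed, at 266 and 332 per Mb. The 6 optimal members in introns under 100 bp were 1.07% of 563 (interval 0.392 to 2.30). All of them lay in later introns, as did 509 of the 563 members of that length.

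**Figure D3:**
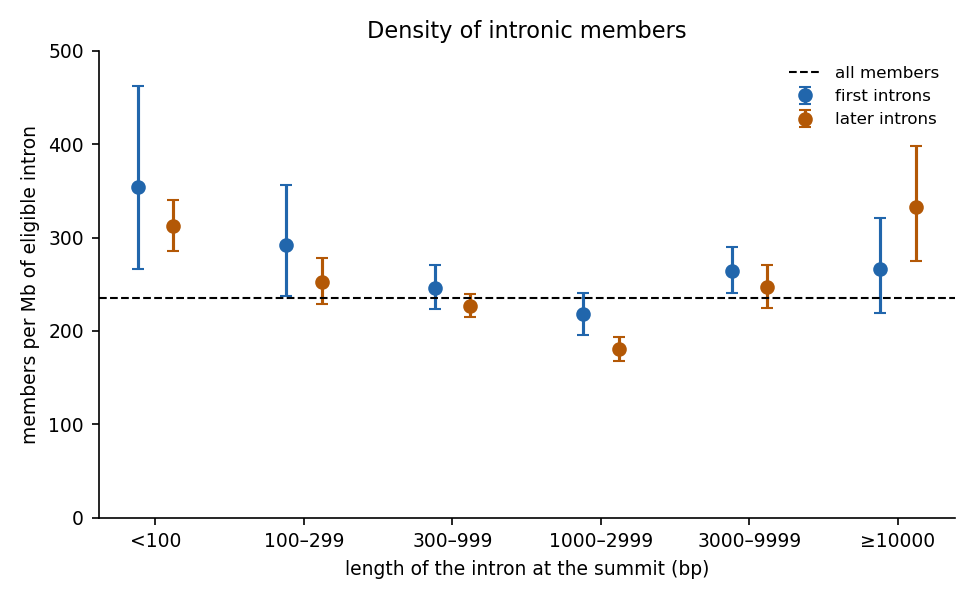
Members per Mb of eligible intron sequence (y) by length of the intron at the summit in bp (x), for first and later introns. Points are densities, error bars are exact Poisson 95% intervals that cover counting error only, and the dashed line is the density over all members. Density was lowest at 1000 to 2999 bp and higher on both sides.

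Nearly all peaks, 5191 of 5193, were 424 bp wide, so width carried no information and short introns could not contain a peak. Introns shorter than that width held 1471 members, 12 of them optimal. In all, 2094 peaks overlapped no exon, 2301 lay in exons for less than 50% of their length and 798 for 50% or more. The optimal shares of these classes were 0.478%, 0.739% and 1.00%, with overlapping intervals. Density also followed the distance to the nearest splice site, at 294 per Mb within 50 bp, 176 per Mb beyond 500 and up to 1000 bp and 273 per Mb beyond that. For the members in short introns, signal at the summit and signal over the flanking exons cannot be told apart from the lists.

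GC content at the summits was higher in the stronger members. The 101 bp windows averaged 45.3% ± 11.1 (SD over 35 peaks) in optimal members, 43.5% ± 9.48 from the optimal list to rank 3000, 40.2% ± 8.98 from rank 3001 to 10000 and 38.0% ± 8.75 below that. Flanking windows centred 300 bp to each side were at 38.0%, 39.0%, 38.6% and 37.5%, a smaller range in which the 3 larger tiers had the same order and the optimal tier did not. The rule keeps exons out of the summit but not out of the flanks. In members whose peak overlapped no exon, the summits were at 40.3% and the flanks at 37.3%. Bases that the assembly marks as repeats or low complexity covered 18.8%, 32.1%, 37.5% and 41.3% of the windows down the same 4 tiers, beside 55.3% of the eligible sequence. The part of base composition and of mappability in the signal was not tested.

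**Figure D4:**
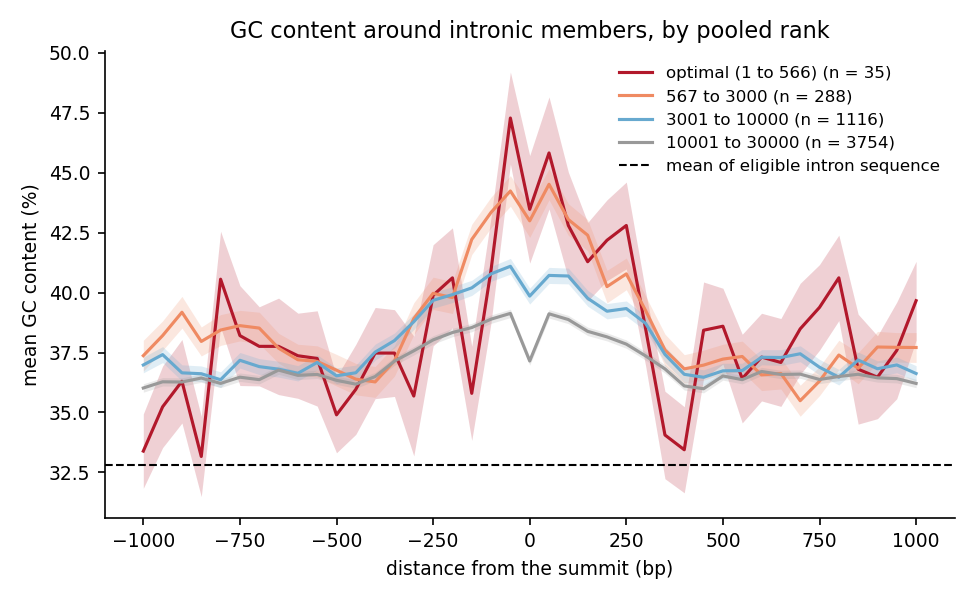
Mean GC content in percent (y) in 51 bp windows by distance from the summit in bp (x), for members in 4 tiers of pooled rank. Shading is the standard error over peaks, and the dashed line is the mean of the eligible intron sequence, 32.8%. The profiles of the upper tiers are highest around the summit, and those of the 3 larger tiers come closer together beyond about 300 bp, with gaps left. At -900 bp the tier to rank 3000 was at 39.2% and the weakest at 36.3%, and at 700 bp they were at 35.5% and 36.6%. The optimal tier, with 35 peaks, is the noisiest. The dip at the summit itself lies where the rule requires intron.

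Of 14 words searched on both strands, GAGAGA had the largest difference between optimal summits and their flanks, in percentage points, and was singled out after its values were seen. It occurred in 8 of 35 summit windows (22.9%, interval 10.4 to 40.1) and in 3 of 70 flanking windows (4.29%). In the lower tiers its share was 9.03%, 8.78% and 6.26%. Over all members it was in 7.07% of windows and over all 30000 candidates in 8.20%. Promoter windows with optimal peaks had it in 26 of 176 (14.8%), distal intergenic ones in 12 of 54 (22.2%) and coding exons in 0 of 41 (interval up to 8.60). Its frequency at optimal members was therefore close to that at optimal intergenic peaks, and the small number leaves a wide interval. The 8 hosts were ints-8, mdt-26, epg-9, mnk-1, Y54G2A.77, R05D3.9, pqn-41 and unc-116, the heavy chain of kinesin. Only 3 of these 8 peaks overlapped no exon, and in R05D3.9 the word itself lay in exon bases.

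Several words rich in G and C were also more frequent at summits than in flanks. Over all members GGGCGG was in 3.31% of summit and 2.30% of flanking windows, CGCGCA in 3.06% and 1.93%, and TTGCGC in 3.68% and 2.72%. In the tier from the optimal list to rank 3000, CGCGCA was in 5.56% of summits and 0.868% of flanks, GGGCGG in 7.29% and 2.78%, and CACGTG in 5.21% and 1.39%. These ratios were larger than that of GAGAGA in the same tier, 9.03% and 6.60%. GC content was higher at the summits of that tier too, and its part in these counts was not tested.

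The homeobox core TAATTA was in 3.66% of member windows and 3.80% of their flanks, and in 1 of the 35 optimal windows. GTTGCC, part of the X box bound by RFX factors, was in 2.95% of both. GTTCGA, part of the B box of tRNA genes, was in 3.83% of summits and 4.02% of flanks, and in 1 optimal window. TTTCAG, the usual end of a worm intron, was in 21.3% of member windows and 19.5% of flanks. Runs of AAAAAA were in 40.6% of member windows but in 9 of the 35 optimal ones (25.7%). A match of a word is a description of the sequence and not evidence of a bound site.

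**Figure D5:**
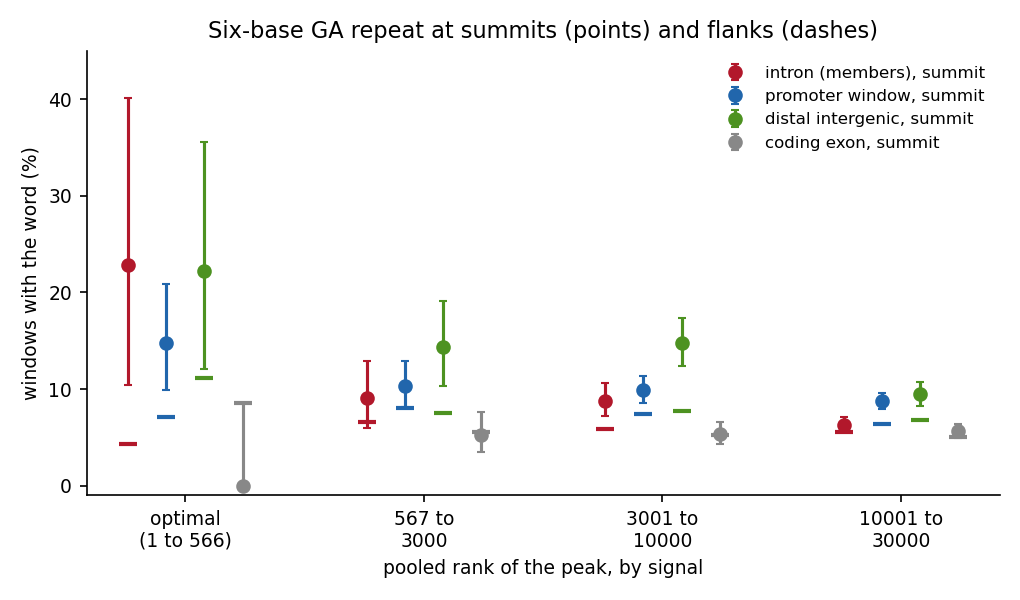
Percentage of 101 bp windows that hold the six-base GA repeat on either strand (y) by tier of pooled rank (x), for 4 position classes. Points are summit windows with exact binomial 95% intervals, and dashes are flanking windows. Among optimal peaks the summit share was 22.9% in introns and 0 of 41 in coding exons, and in the weakest tier the classes lay between 5.64% and 9.43%.

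The members were spread over many genes. They lay in 3160 of the 14792 autosomal coding genes with eligible sequence (21.4%), and 2160 of these hosts had a single member. The 35 optimal members lay in 35 different genes. Host genes offered more sequence, with a median of 1.95 kb of eligible intron against 0.490 kb for the others, and 241 of the 296 genes with at least 10 kb were hosts (81.4%). Overlaps between members were common: 829 overlapped another member, and 4771 were left after merging. Of 4272 introns with a member, 3709 had 1, and 47 introns with at least 5 held 290 members.

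Y48C3A.5 on chromosome II had the most members, 28, of which 1 was optimal (93.7) and 15 lay in a single intron of 19927 bp. The dauer and longevity regulator daf-16, a FOXO transcription factor, had 15 members with a highest signal of 76.7, and 10 of them matched both replicates. The protein kinase D gene dkf-2 also had 15, but its highest signal was 51.8 and only 2 matched both replicates. The AMP-activated kinase subunit aakg-1 and the potassium channel kcnl-1 had 14 each. The CREB homolog crh-1 had 12, the strongest of them at 85.3, just under the optimal threshold. Nucleolar size regulator ncl-1 had 12 members in 10.1 kb, the highest density of the 10 genes with most members at 1.19 per kb, and 10 of its members matched both replicates. Of the 10 hosts with most members, Y48C3A.5 alone held an optimal one. With 12 to 28 members in each and 0.674% of all members optimal, a count of 0 in such a host is near the overall share.

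Among 14 lists of genes, the share of hosts was in general higher where the genes had more eligible intron. Muscle structure genes were hosts in 19 of 33 cases at 307 members per Mb, and nuclear hormone receptors in 50 of 242 at 309 per Mb, beside 236 per Mb over all coding genes. G protein and cyclic nucleotide signalling genes reached 307 per Mb, with 81 members. Chemoreceptors were hosts in 127 of 1237 cases at 184 per Mb, and genes of the homeobox list in 20 of 71 at 199 per Mb. Both channel lists were also below 236 per Mb, at 185 (voltage-gated and potassium) and 189 (ligand-gated). So were the synaptic, axon guidance and chromatin lists, at 180, 195 and 190 per Mb. Collagens (258, with 10 members) and the list of spectrins, ankyrin, kinesins and dynein (251) were above it. No intervals are given for these densities. The homeobox list includes lim-9, a LIM domain gene without a homeobox, with 4 members in 27.8 kb of eligible sequence. No member in a muscle, channel, synaptic, axon guidance, G protein signalling, homeobox, nuclear receptor, collagen or chromatin gene was optimal. With 10 to 86 members in each of these lists and 0.674% of all members optimal, a count of 0 is near the overall share. List members with an optimal peak included srt-47, a chemoreceptor gene (96.8), and unc-116 (88.3). The Mediator and Integrator list had 2 more, mdt-26 and ints-8, the latter near rpr-1. That list had 8 hosts among 33 genes at 143 members per Mb, the lowest density of the lists with any member. Ribosomal protein genes had 0 hosts among 26, with 3.15 kb of eligible sequence.

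Within the muscle list the strongest members lay in deb-1, which encodes vinculin (58.0), vab-10, a spectraplakin with 10 members (55.8), and dyb-1, a dystrobrevin (54.0). In the homeobox list they lay in zfh-2, with 11 members (52.2), and unc-62 (47.3). The strongest in the nuclear receptor list were in nhr-84 (63.3) and nhr-34, with 6 members (61.7). The axon guidance receptor vab-1, an ephrin receptor, had 11 members with a highest signal of 55.3. All of these lay below the optimal signal of 86.5.

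The optimal share of members differed between chromosomes, but the intervals overlapped. Chromosome III had 12 of 1082 members optimal (1.11%, interval 0.574 to 1.93) and chromosome IV 10 of 891 (1.12%, interval 0.539 to 2.05). Chromosome I had 3 of 1118 (0.268%, interval 0.055 to 0.782), chromosome V 3 of 1127 (0.266%, interval 0.055 to 0.776) and chromosome II 7 of 975 (0.718%). Over all candidates the optimal share ran from 1.36% on chromosome V to 2.43% on chromosome III. Density of members was 213 per Mb in the third of each chromosome at its centre and 244 per Mb outside it.

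Noncoding genes of other classes lay within 500 bp of 477 members. Of these, 7 were optimal (1.47%, interval 0.592 to 3.0), beside 28 of the 4716 with none (0.594%, interval 0.395 to 0.857). The intervals overlapped. Members near piRNA genes were sparse, with 129 at 121 per Mb, and 2 of them were optimal. Of 274 members near genes annotated as unspecified noncoding RNA, 4 were optimal, and of 19 near a miRNA gene, 1 was.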

How the data were processed

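Each peak carries a signal assigned by the authors, used here to rank and describe peaks inside 1 list. Per the submitters' notes, each replicate's alignment and the pooled alignments were compared with a control alignment to call peaks. The optimal list was thresholded on the irreproducible discovery rate. Which aligner and peak caller were used is not given in the sources used here. Depth is unknown.

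Gene models came from Ensembl release 115 of WBcel235 and sequence from the RefSeq assembly. Replicate peaks were matched to pooled peaks by at least 1 bp, and the best overlap was kept. Shares have exact binomial (Clopper-Pearson) intervals, medians order-statistic intervals and densities exact Poisson intervals. An intron was first if it was first in at least 1 transcript, and the shortest intron at the summit gave its length. Genes named were the hosts of the 25 strongest members, the 10 hosts with most members, up to 4 hosts per list, and 3 members on each side of the optimal threshold. Members, lists and the 14 words were chosen with earlier results of these data known. The remaining optimal hosts named beyond that rule were picked after their values were seen. Density and interval code was tested on simulated data. Python 3.11.15, numpy 2.4.6, pandas 2.3.3, scipy 1.17.1 and matplotlib 3.10.9 were used. Lists in ce10 were not used here.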

Additional observations from a re-analysis of the deposited data

How the results depend on the processing

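Of 50 alternative values for 6 results, 40 stayed within the spread set for them and 10 moved. Those that used the midpoint of the peak could hardly move, because it was the summit in 5191 of the 5193 members. The optimal share of 0.674% became 1.15% with no exclusion of short noncoding genes. It became 0.231% with the stronger 50% of the optimal peaks, a list that holds 0.943% of all candidates in place of 1.89%. A shorter list gives a lower share, but the share of members fell by a larger factor than that of all candidates. Leaving out each replicate gave 0.753% (40 of 5313 members, without replicate 1) and 0.755% (40 of 5295, without replicate 2). The authors' optimal list draws on both replicates, so these shares are not the same measure as 0.674%. The ratio of first to later introns was then 1.07 to 1.08 and intron lengths were 806 to 824 bp. The share matched in both replicates, 45.4%, was 33.5% when an overlap of 50% of the shorter peak was required, 19.99% with summits within 100 bp and 43.1% with overlapping members merged. Median intron length, 836 bp, was 926.5 bp with a promoter window of 2000 bp upstream and 500 bp downstream, 796 bp after merging and 912 bp with the longest intron at the summit. Median GC content, 38.6%, was 37.3% with 25 bp and 38.8% with 100 bp to each side. The cause of these shifts was not tested. Alternatives restricted to peaks that overlap no exon and to those with no noncoding gene within 500 bp were chosen after seeing the data, and gave optimal shares of 0.478% and 0.594%. No paired analysis was possible because there is only 1 group. Unknown read depth and 2 replicates limit every value.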
